A study of Mus musculus with 12 samples.

Results

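The 9 genes described here encode the hyaluronan-based network of the cartilage matrix. They are the large proteoglycans Acan and Vcan, the link proteins Hapln1 and Hapln3, the hyaluronan synthases Has1 and Has2, the hyaluronan receptor Cd44, and the hyaluronidases Hyal1 and Hyal2. They were chosen by name, and all 9 were found among the 17536 genes of the deposited RNA-seq values. RNA came from cells of the superficial zone (SFZ) and the deep zone (DZ) of the cartilage of 5-day-old C57BL/6 mice (C57BL/6J per the methods). Every mouse was homozygous for a floxed Runx3 allele, written Runx3 fl/fl, and carried either no further transgene (R3-Cntl) or Col2a1-Cre (R3-cKO), in which the Col2a1 promoter drives the recombinase in cells of the chondrocyte lineage. Each combination of zone and genotype had 3 libraries, 12 in all, from 3 individual littermate mice per genotype per the study's supplement. Per the methods, SFZ cells were released by a short digestion, DZ cells by a longer digestion of the cartilage that was left, and the cells were grown as monolayers. The design thus asks how the network differed between zones, and whether it differed between genotypes within a zone.

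Aggrecan, the product of Acan, carries many chondroitin sulfate chains and draws water into cartilage, which gives the tissue its resistance to compression. Its head binds a hyaluronan chain, and link protein locks that bond. Versican has the same kind of head with a different, less densely substituted core, and is best known from early mesenchyme, vessel walls and tendon. Hyaluronan itself is spun out at the cell membrane by the Has enzymes, held at the cell surface by Cd44 and cut by hyaluronidases.

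Values are FPKM, numbers of sequenced fragments divided by transcript length and library size, which the authors further scaled between libraries. They allow levels to be compared between genes because they are given per length. Low values of genes with a single transcript were best fitted by steps that correspond to about 27200000 to 30300000 fragments in a library. Runx3, the targeted gene, was not lower in the libraries labelled R3-cKO, at 3.42 to 11.8 FPKM in the SFZ and 8.14 to 15.9 FPKM in the DZ, against 5.98 to 10.7 and 7.66 to 12.7 FPKM in R3-Cntl. It is a value for the whole gene, and reads over the deleted part were not examined, so R3-cKO stands throughout for the libraries labelled so. Y-linked transcripts summed to 12.1 to 52.4 FPKM in 8 libraries and to at most 0.06 FPKM in 4 libraries, those labelled R3-cKO with the numbers 2 and 3. In those numbers sex and genotype cannot be told apart. For R3-Cntl numbers 1, 2 and 3 the sums were 42.9, 12.1 and 52.4 FPKM in the SFZ and 40, 16.8 and 17 FPKM in the DZ. R3-cKO number 1 held 28.3 FPKM in the SFZ and 29.6 FPKM in the DZ. Whether a number marks the same mouse in both zones was not tested. Chondrocyte markers were present in every library (4884 to 30692 FPKM over 6 genes). Prg4, which defines the superficial zone, reached 2.13 to 22.2 FPKM in SFZ and 1.22 to 5.72 FPKM in DZ libraries.

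Several genes of this network, but not all, lie close to another member in the mouse genome (mm9, GENCODE M1 annotation). Acan (chr7:86198369-86259985, plus strand) and Hapln3 (chr7:86260026-86275895, minus strand) point at each other with 40 bases between their ends. Vcan (chr13:89794915-89882117, minus strand) and Hapln1 (chr13:89680241-89751437, plus strand) also converge, with 43477 bases and no coding gene between them. Hyal2 (chr9:107471448-107475107) and Hyal1 (chr9:107479258-107485174) follow each other on the plus strand, 4150 bases apart, and Hyal1 overlaps Nat6 and Hyal3. Has2 (chr15:56497182-56526094, minus strand) is overlapped by the antisense gene Has2as, Vcan by Gm16318 and Gm4117, neither protein-coding, and Cd44 by a U6 gene. Has1 (chr17:17980292-17992152) and Cd44 (chr2:102651298-102741822) are both on the minus strand. Has1, Has2 and Cd44 each lie on a chromosome without another member. Whether the counting used strand is not given in the sources used here, so fragments of Vcan, Has2, Cd44, Hyal1 and Hapln3 cannot be told apart with certainty from those of the overlapping or touching genes. The deposited values combine 5 RefSeq transcripts for Vcan and 6 for Cd44, so splice variants were not resolved.

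The sequences before the start sites of Acan, Vcan and Hapln1 are shown because these genes had the 3 largest differences between zones among the members that passed the test, and because the study deleted a Runx factor. They are the 250 bases before the RefSeq start, 5′ to 3′ on the gene's own strand, and each matched mm9 exactly. They lie at chr7:86197862-86198111 (plus strand) for Acan, whose RefSeq start is 257 bases upstream of the GENCODE start, at chr13:89882118-89882367 (minus strand) for Vcan, and at chr13:89679991-89680240 (plus strand) for Hapln1. Capitals mark a Runx motif, searched as TGTGGT and TGCGGT on both strands; no matches overlapped in the windows of the members.
Acan: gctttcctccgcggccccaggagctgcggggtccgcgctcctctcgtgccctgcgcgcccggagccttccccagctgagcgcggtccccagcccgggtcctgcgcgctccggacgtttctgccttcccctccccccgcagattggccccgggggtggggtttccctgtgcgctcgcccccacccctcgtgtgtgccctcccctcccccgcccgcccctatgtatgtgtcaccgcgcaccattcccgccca
Vcan: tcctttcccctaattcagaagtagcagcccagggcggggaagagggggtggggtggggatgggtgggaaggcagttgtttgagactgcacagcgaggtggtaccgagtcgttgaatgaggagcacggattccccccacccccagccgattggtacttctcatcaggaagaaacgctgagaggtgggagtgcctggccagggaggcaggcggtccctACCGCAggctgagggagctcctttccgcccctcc
Hapln1: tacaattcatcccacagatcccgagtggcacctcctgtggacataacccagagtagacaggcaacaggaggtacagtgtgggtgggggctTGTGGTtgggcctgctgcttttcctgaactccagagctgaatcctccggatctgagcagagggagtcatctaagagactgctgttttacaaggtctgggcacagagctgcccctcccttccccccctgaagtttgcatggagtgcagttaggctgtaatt

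The Acan window held no match. The study reported several Runx3 binding peaks around Acan, and the upstream region it cloned there lies outside this window. Per the study, reporter activity of that region rose with Runx3 overexpression. The Vcan window held TGCGGT on the opposite strand at positions -34 to -29 from the start, and the Hapln1 window held TGTGGT on its own strand at -160 to -155. Of the 8 members with such a window in the RefSeq table of GRCm38, 3 held a match, the other one being Hyal1 with TGTGGT on the opposite strand at -171 to -166 and at -158 to -153. Among all 32851 windows of the same length 18.6% held one.

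The levels of the 9 genes spanned nearly 4 orders of magnitude. Averaged over the 12 libraries, Acan stood highest at 830 FPKM and Hapln1 next at 408 FPKM, and Acan was above Hapln1 in 11 of 12 libraries. Cd44 (24.6 FPKM) and Hyal2 (13.6 FPKM) came far below, and Hapln1 was above Cd44 in 12 of 12 libraries. Vcan (8.15 FPKM), Has2 (7.21 FPKM) and Hyal1 (5.99 FPKM) followed, and their ranges overlapped with each other. Hapln3 (0.602 FPKM) and Has1 (0.0967 FPKM) were lowest, and each gene's range over the 12 libraries lay apart from that of the gene above it. In SFZ libraries Vcan and Hyal2 had the same mean (13.4 FPKM each), whereas in DZ libraries Vcan (2.91 FPKM) had fallen behind Hyal2 (13.8 FPKM), Has2 (9.6 FPKM) and Hyal1 (6.02 FPKM).

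**Figure D1:**
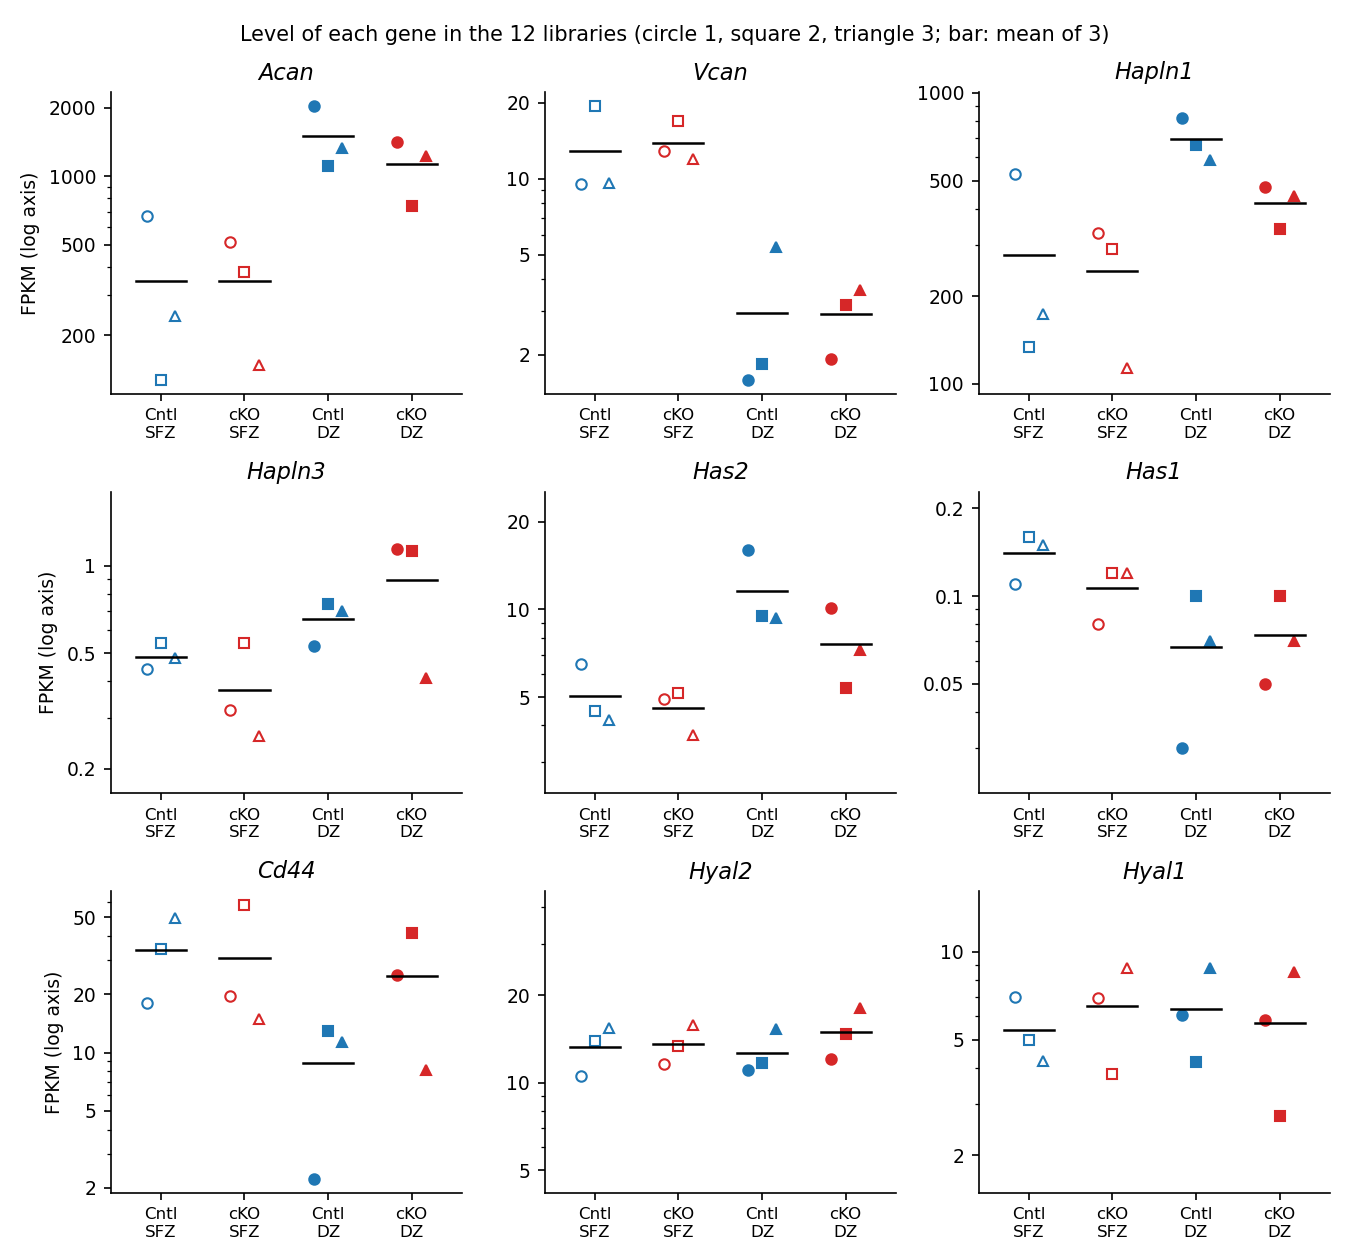
Level of each gene in FPKM on a log axis in the 4 groups, 1 symbol per library and a bar at the mean of 3. Acan and Vcan separated the zones in opposite directions, and Hyal2 stayed between 10.6 and 18 FPKM in all 12 libraries.

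Zones were compared over both genotypes, 6 libraries against 6, by limma on log2(FPKM + 1) with genotype as a covariate. Of 11765 genes tested, 2725 (23.2%) passed at an adjusted p under 0.05, 506 of them (4.3%) higher and 2219 (18.9%) lower in the DZ. That split depended on scaling, as quantile normalization gave 1237 higher and 915 lower and median-of-ratios factors 1053 and 1088, with a median log2 difference over all genes of -0.14 as deposited, 0.03 and 0.00. Hapln3 and Has1 were below the filter of 1 FPKM in 3 libraries. Of the 7 members tested, Acan, Hapln1 and Has2 were higher and Vcan was lower in the DZ, and these 4 calls were made under all 3 scalings.

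For Acan, SFZ libraries 1, 2 and 3 held 670, 127 and 243 FPKM with the R3-Cntl genotype, while the R3-cKO ones held 515, 380 and 149 FPKM. DZ libraries held far more, 2046, 1112 and 1339 FPKM (R3-Cntl) or 1417, 738 and 1230 FPKM (R3-cKO). The zones did not overlap, which was true of 11.3% of all genes tested, and the lowest DZ library stood just above the highest SFZ library. The mean rose from 347 ± 215 FPKM (SD, n = 6) in the SFZ to 1314 ± 430 FPKM (SD, n = 6) in the DZ, 3.78 times as high. The log2 difference was 2.11 (SE 0.42, limma adjusted p = 0.00610) and stayed past the threshold with any library left out (1.83 to 2.36, highest adjusted p 0.0162). Within the SFZ Acan varied 5.27-fold between libraries, against 2.77-fold within the DZ.

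Vcan went the other way. SFZ libraries held 9.53, 19.5 and 9.59 FPKM (R3-Cntl) or 12.8, 16.9 and 12 FPKM (R3-cKO). DZ libraries held 1.59, 1.84 and 5.34 FPKM (R3-Cntl) or 1.92, 3.16 and 3.61 FPKM (R3-cKO). The zones did not overlap, which was true of 11.3% of all genes tested. Vcan was therefore lower in the DZ in 6 of 6 same-numbered pairs, as any pairing would give. The mean was 13.4 ± 4.02 FPKM in the SFZ and 2.91 ± 1.44 FPKM in the DZ (SD, n = 6 each), 4.6 times as high in the SFZ. Its log2 difference of -1.91 (SE 0.25) had the lowest adjusted p of the members (limma, 0.000946), ranking 91 of 11765 genes, and leaving out any library gave -2.09 to -1.77.

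The proteoglycan mix therefore shifted by more than either gene alone. There were 6.52 to 70.3 (median 23.9) Acan FPKM for each Vcan FPKM in SFZ libraries and 234 to 1287 (median 473) in DZ libraries. R3-Cntl DZ library 1 held the highest ratio and R3-Cntl SFZ library 2 the lowest. That SFZ library also stood apart in the sum of 5 skeletal muscle markers (69.6 FPKM, against at most 18.6 FPKM elsewhere). The part of muscle cells in its values was not tested. These ratios restate the difference of the same values and carry no test of their own.

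**Figure D2:**
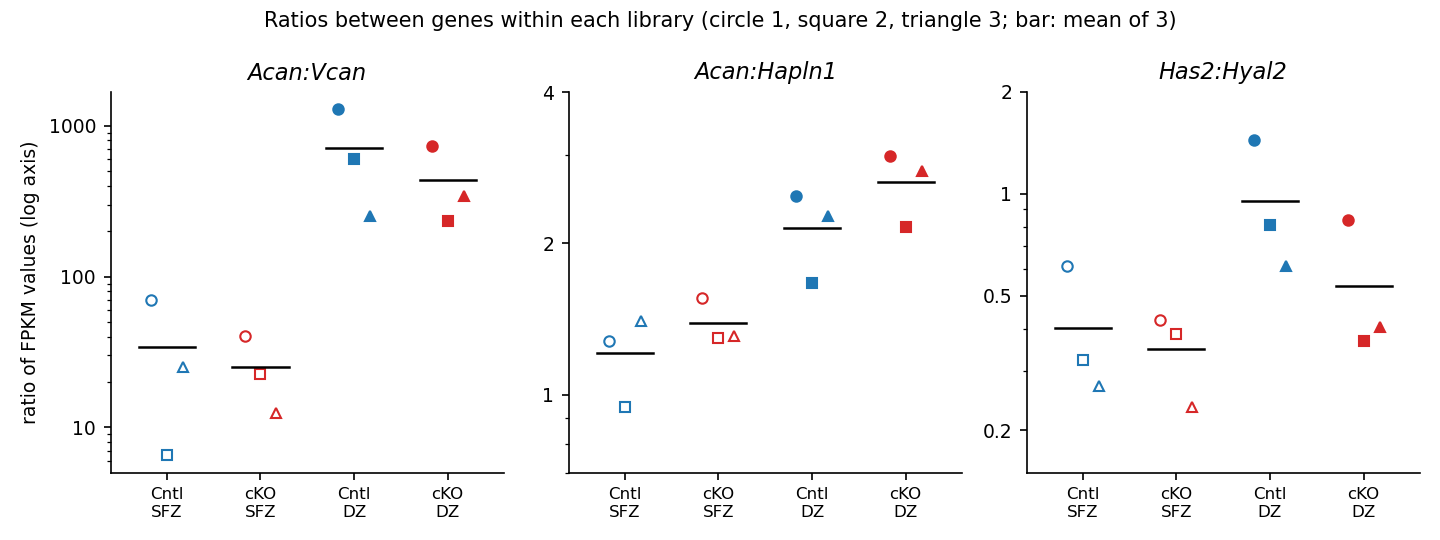
Ratios of FPKM values within each library on a log axis, 1 symbol per library and a bar at the mean of 3. Acan:Vcan and Acan:Hapln1 were higher in every DZ library than in any SFZ library, whereas Has2:Hyal2 overlapped between zones (0.235 to 0.613 in the SFZ, 0.368 to 1.44 in the DZ).

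Hapln1, cartilage link protein, was the second most abundant member. SFZ libraries 1, 2 and 3 held 524, 134 and 174 FPKM (R3-Cntl) or 330, 292 and 113 FPKM (R3-cKO). DZ libraries held 821, 664 and 590 FPKM (R3-Cntl) or 475, 342 and 441 FPKM (R3-cKO). The DZ was higher within each genotype without overlap, but over both genotypes the highest SFZ library exceeded 3 of the DZ libraries. The mean was 261 ± 155 FPKM in the SFZ and 556 ± 173 FPKM in the DZ (SD, n = 6 each), a 2.13-fold difference (log2 difference 1.23, SE 0.35, limma adjusted p = 0.0286). The call was lost when any of 6 libraries was left out, namely R3-Cntl SFZ 2 and 3, R3-cKO SFZ 3, R3-Cntl DZ 1 and 2 and R3-cKO DZ 1, with adjusted p from 0.0135 to 0.0659 over all 12 omissions.

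Acan rose more than Hapln1 between zones. Acan stood at 0.947 to 1.56 FPKM for each FPKM of Hapln1 in the SFZ and at 1.67 to 2.99 in the DZ. The ratio did not overlap between zones, and R3-Cntl library 2 was lowest in both. Across the 12 libraries the log2 values of the pair had a Pearson r of 0.95, and of 0.94 after the mean of each zone had been removed, as a description over libraries that share a scaling.

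Hapln3, a link protein found more widely than Hapln1, was measured at 0.26 to 0.54 FPKM in SFZ and 0.41 to 1.14 FPKM in DZ libraries. Its highest values were 1.14 and 1.12 FPKM in R3-cKO DZ libraries 1 and 2, and the third was at 0.41 FPKM. The zones overlapped, and the exact two-sided permutation test within genotypes gave p = 0.03. Its transcript of 3311 bases was covered by an estimated 23 to 102 fragments per library, beside 25876 to 425719 for Acan, which ends 40 bases away. How far fragments of Acan entered the value of Hapln3 was not tested.

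Has2, the main hyaluronan synthase of cartilage, stood in the SFZ at 6.49, 4.49 and 4.16 FPKM (R3-Cntl) or 4.91, 5.15 and 3.71 FPKM (R3-cKO). In the DZ it stood at 16, 9.48 and 9.36 FPKM (R3-Cntl) or 10.1, 5.39 and 7.27 FPKM (R3-cKO). All DZ libraries but R3-cKO 2 lay above the highest SFZ library. The mean was 4.82 ± 0.968 FPKM in the SFZ and 9.6 ± 3.59 FPKM in the DZ (SD, n = 6 each), 1.99-fold higher in the DZ (log2 difference 0.82, SE 0.18, limma adjusted p = 0.0103; 0.00525 to 0.0297 with a library left out).

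Has1, another hyaluronan synthase, was close to the limit of detection. It was listed at 0.08 to 0.16 FPKM in the SFZ and 0.03 to 0.1 FPKM in the DZ, which corresponds to about 2 to 9 fragments per library. The exact two-sided permutation test between zones gave p = 0.015, and counting error alone is large at so few fragments. Has2 exceeded Has1 by 27.7- to 61.4-fold in SFZ and 53.9- to 533-fold in DZ libraries.

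Cd44, the cell-surface receptor for hyaluronan, varied most among libraries, 26.1-fold from the lowest to the highest. SFZ libraries held 18.1, 34.1 and 49.7 FPKM (R3-Cntl) or 19.6, 58 and 14.9 FPKM (R3-cKO). DZ libraries held 2.22, 13 and 11.4 FPKM (R3-Cntl) or 25.2, 41.5 and 8.15 FPKM (R3-cKO). The DZ was lower without overlap in R3-Cntl (33.9 ± 15.8 against 8.85 ± 5.8 FPKM, SD, n = 3 each), and the zones overlapped in R3-cKO. Over both genotypes the log2 difference was -1.14 (SE 0.56, 95% interval -2.36 to 0.08, limma adjusted p = 0.159), which did not pass. The mice gave cells to both zones per the supplement, though no label ties a number to a mouse. With genotype and replicate number together as a block Cd44 passed (limma adjusted p = 0.0435). Under that block 800 genes were called higher and 3165 lower in the DZ of 11765 tested, against 2725 called without it. Leukocytes also carry Cd44. The 7 macrophage and leukocyte markers summed to 169, 137 and 6.96 FPKM in R3-Cntl SFZ, 132, 14.2 and 60.8 FPKM in R3-cKO SFZ, and 3.71 to 21.4 FPKM in DZ libraries, and the part of such cells in the Cd44 values was not tested.

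The hyaluronidases overlapped between zones and did not pass. Hyal2, an enzyme tethered to the cell membrane, was measured at 10.6, 13.9 and 15.4 FPKM in R3-Cntl SFZ, at 11.6, 13.3 and 15.8 FPKM in R3-cKO SFZ, at 11.1, 11.7 and 15.3 FPKM in R3-Cntl DZ and at 12.1, 14.6 and 18 FPKM in R3-cKO DZ libraries. It was the steadiest member, with a coefficient of variation of 16.7% over the 12 libraries, and library 3 was highest in each of the 4 groups. Hyal1, a lysosomal hyaluronidase, was 7.02, 4.98 and 4.21 FPKM in R3-Cntl SFZ, 6.92, 3.81 and 8.79 FPKM in R3-cKO SFZ, 6.08, 4.17 and 8.79 FPKM in R3-Cntl DZ and 5.82, 2.74 and 8.53 FPKM in R3-cKO DZ libraries. The 95% intervals of the log2 difference between zones were -0.25 to 0.32 for Hyal2 and -0.59 to 0.55 for Hyal1, and the sign of the Hyal1 difference turned under quantile normalization and median-of-ratios factors. Hyal1 was lower in the DZ in 5 of 6 same-numbered pairs, among them all 3 of R3-cKO. Hyal2 was higher in the DZ in 4 of 6, again with all 3 of R3-cKO. Hyal2 exceeded Hyal1 in every library, by 1.51- to 5.34-fold.

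The exact permutation test of single genes between zones, with labels exchanged within each genotype (400 arrangements, smallest possible p = 0.005), gave p = 0.005 for Acan, Vcan, Hapln1 and Has2. It gave exact p = 0.095 for Cd44, 0.785 for Hyal2 and 0.965 for Hyal1. These p-values are two-sided and not adjusted over the 9 genes.

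Within single genotypes, 3 libraries against 3, no member passed limma's adjusted threshold. In R3-Cntl 140 of 11336 genes passed (1.24%), 3102 (27.4%) had an unadjusted p under 0.05 and 3677 (32.4%) did not overlap between zones. Of the members, 5 had an unadjusted p under 0.05 and 0 passed: Acan (log2 difference 2.40, SE 0.59, limma adjusted p = 0.0794), Vcan (-1.87, SE 0.41, 0.0675), Has2 (1.04, SE 0.24, 0.0731), Hapln1 (1.57, SE 0.49, 0.115) and Cd44 (-1.98, SE 0.62, 0.115). These 5 did not overlap between zones, and neither did Has1. The unadjusted count was 1502 without SFZ 2 and 1938 without DZ 1. A block for the replicate number gave 831 genes, and Acan (limma adjusted p = 0.0307), Has2 (0.0287) and Cd44 (0.0308) were among them. Same-numbered libraries of this genotype did not all deviate together.

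In the libraries labelled R3-cKO, 2 of 11336 genes passed (0.0176%), 1602 (14.1%) had an unadjusted p under 0.05 and 2380 (21%) did not overlap. The unadjusted count was 1058 without SFZ 1, 885 without SFZ 3, 977 without DZ 1 and 3396 with the replicate block. The members Acan, Vcan, Hapln1 and Has2 did not overlap between zones. Vcan ranked 11 of 11336 genes by p (log2 difference -1.95, SE 0.22, limma adjusted p = 0.0736), and with the replicate number as a block, which the libraries of this genotype share, it passed (adjusted p = 0.0321, beside 352 genes). Acan differed by 1.82 (SE 0.50, adjusted p = 0.212), Hapln1 by 0.90 (SE 0.42, and 0.42 to 1.19 with a library left out), Has2 by 0.59 (SE 0.23, and 0.39 to 0.79) and Cd44 by -0.31 (SE 0.70). The estimates for Vcan were nearly equal in the 2 genotypes, and that of Cd44 was the one with the widest gap between them.

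**Figure D3:**
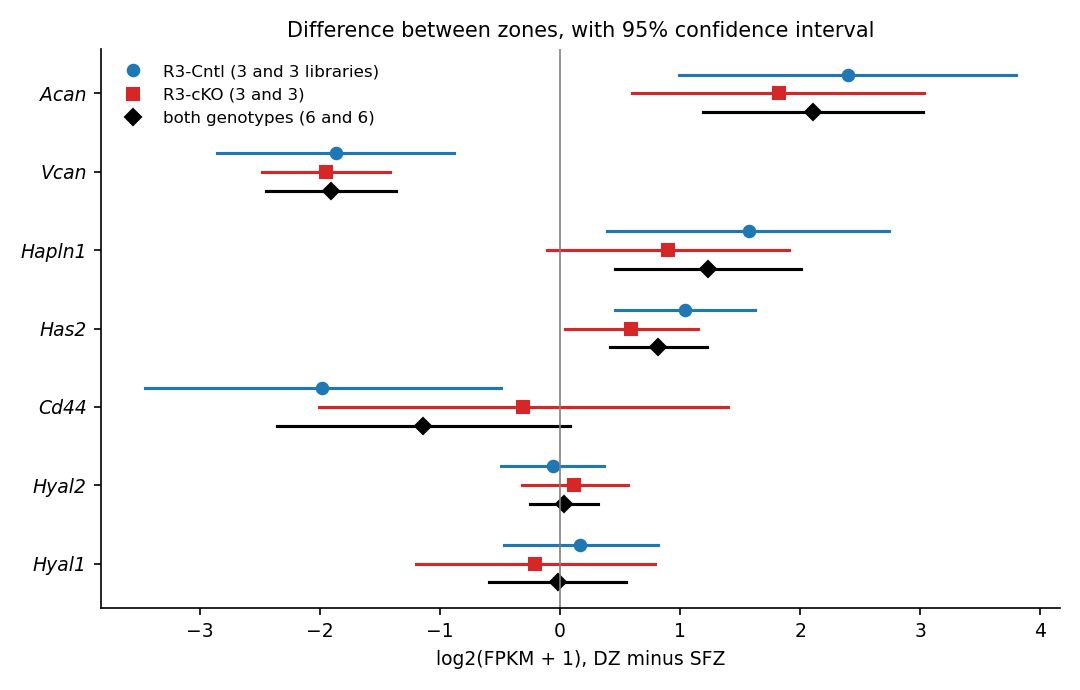
Difference in log2(FPKM + 1), DZ minus SFZ, for the 7 tested members with 95% confidence intervals, in R3-Cntl, in R3-cKO and over both genotypes. Intervals over both genotypes exclude 0 for Acan, Vcan, Hapln1 and Has2, and include it for Cd44, Hyal2 and Hyal1.

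The zones also differed in the cell types that their RNA reflected, and in bulk RNA fewer cells of a type and less RNA per cell cannot be told apart. The 8 fibroblast, synovium and tendon markers summed to 2322 to 6338 FPKM in SFZ libraries and to 60.1 to 1257 FPKM in DZ libraries. In the DZ, Vcan was highest (5.34 and 3.61 FPKM) in the R3-Cntl and R3-cKO libraries numbered 3, where this sum was highest (1257 and 976 FPKM), and it was lowest (1.59 FPKM) in the library with the lowest sum (60.1 FPKM). In the SFZ the order was different, since R3-cKO library 3 with the highest sum (6338 FPKM) held 12 FPKM of Vcan. Per 1000 FPKM of Col1a1, the fibrous collagen gene, Vcan stood at 2.5 to 9.13 FPKM in the SFZ and 5.56 to 65.2 FPKM in the DZ. With both DZ libraries numbered 3 left out, an alternative chosen after seeing the data, the log2 difference of Vcan was -2.18 (limma adjusted p = 0.00143). The part of such cells in the result was not tested.

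The 6 chondrocyte markers summed to 4884 to 13750 FPKM in SFZ and to 14822 to 30692 FPKM in DZ libraries, a sum to which Col2a1 added most, and Acan followed it within each zone (Pearson r = 0.92 over the 6 SFZ libraries and 0.92 over the 6 DZ libraries, as a description). Per 1000 FPKM of Col2a1, the main cartilage collagen gene, Acan stood at 36.1 to 75.8 FPKM in the SFZ and 65.6 to 90.9 FPKM in the DZ, which overlapped. On the same scale Hapln1 stood at 25.9 to 58.2 FPKM in the SFZ and 24.7 to 46.7 FPKM in the DZ, and Has2 at 0.593 to 1.39 and 0.408 to 0.702 FPKM. Relative to Col2a1, thus, the median of Acan was still higher in the DZ (77.3 against 55.5), whereas the medians of Hapln1 (32.1 against 40.6) and Has2 (0.59 against 0.865) were lower. These ratios were chosen after the values were seen and were not tested.

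**Figure D4:**
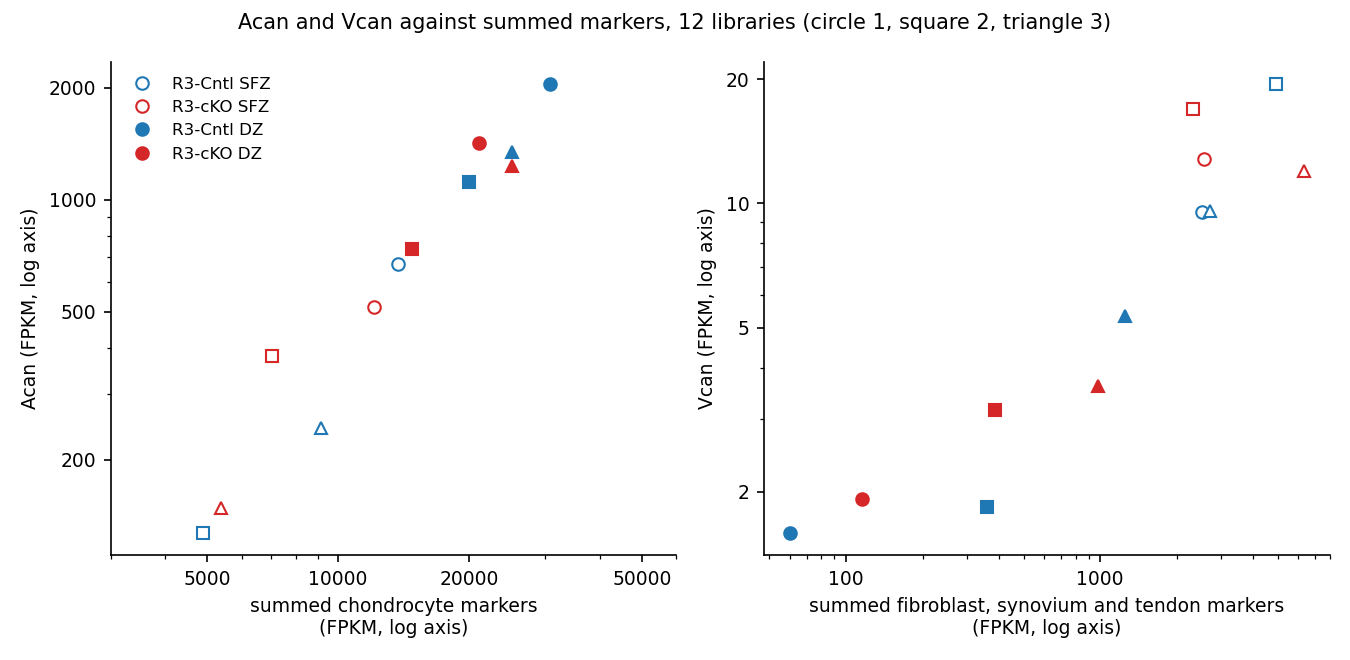
Acan against the summed chondrocyte markers and Vcan against the summed fibroblast, synovium and tendon markers, in FPKM on log axes, 1 symbol per library. Acan rises with its marker sum within both zones, and the 2 DZ libraries with the highest fibroblast sums hold the most Vcan of that zone.

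Genotypes were then compared within each zone, to ask whether the floxed Runx3 allele with Col2a1-Cre went with a different level of any member. By limma 0 of 11537 genes (0%) passed the adjusted threshold in the SFZ and 0 of 11091 (0%) in the DZ. At an unadjusted p under 0.05 there were 34 genes (0.295%) in the SFZ and 404 (3.64%) in the DZ, and 277 (2.4%) and 891 (8.03%) genes did not overlap between genotypes. The unadjusted counts rested on single libraries. In the SFZ there were 1204 without R3-cKO 2, 101 without R3-Cntl 1 and 12 without R3-cKO 3, and in the DZ 222 without R3-Cntl 1, and 239, 211 and 773 without R3-cKO 1, 2 and 3. With the replicate number as a block, for which same-numbered DZ libraries deviated together, the DZ count was 1830 and 0 genes passed after adjustment. Of the members, 0 in the SFZ and 1 in the DZ, Hapln1, had an unadjusted p under 0.05, and Hapln1 was also the only one of the 7 whose genotypes did not overlap. With 3 libraries against 3, an exact two-sided permutation test cannot give less than 0.1. With the block in the DZ, 1830 of the 11091 genes had an unadjusted p under 0.05, against 404 without it. Hapln1, Has2, Acan and Hyal2 were among the 1830, with limma adjusted p of 0.173, 0.173, 0.282 and 0.289.

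Hapln1 in the DZ was lower in each library labelled R3-cKO (342 to 475 FPKM) than in any of R3-Cntl (590 to 821 FPKM). Mean levels stood at 419 ± 69.1 FPKM against 692 ± 118 FPKM (SD, n = 3 per genotype), and the log2 difference was -0.72 (SE 0.20, 95% interval -1.19 to -0.25, limma unadjusted p = 0.00884, adjusted p = 0.999, exact permutation p = 0.1). It ranked 73 of 11091 genes and thus did not pass. In same-numbered pairs R3-cKO stood at 0.578, 0.515 and 0.747 times R3-Cntl for numbers 1, 2 and 3, and number 1 is the pair in which both libraries held Y-linked transcripts. Per 1000 FPKM of Col2a1, Hapln1 was 30.4, 30.4 and 24.7 FPKM in R3-cKO and 36, 46.7 and 33.7 FPKM in R3-Cntl DZ libraries, again without overlap. The summed 5 superficial-zone markers also differed between the genotypes in the DZ without overlap (107 to 128 FPKM in R3-cKO against 63.8 to 99.5 FPKM in R3-Cntl). Tnc separated the genotypes in the same direction (74.6 to 99.7 FPKM against 25.7 to 73.2 FPKM), Vit ran the other way without overlap (0.5 to 1.94 FPKM against 2.5 to 5.47 FPKM), and Prg4, Erg and Clu overlapped. The macrophage and leukocyte sum also separated the DZ genotypes (3.71 to 6.31 FPKM in R3-cKO against 6.65 to 21.4 FPKM in R3-Cntl). So did the keratinocyte sum (1.17 to 1.29 against 0.96 to 1.08 FPKM), which was almost all Krt10 (1.08 to 1.12 against 0.86 to 0.97 FPKM). Krt5 and Krt14 were at most 0.1 FPKM in the DZ and overlapped between genotypes. The other marker sums overlapped. Of the deep-zone and hypertrophic markers, Alpl alone did not overlap (8.43 to 11.9 against 22.9 to 51.4 FPKM). The part of all these markers in the genotype differences was not tested. In the SFZ the log2 difference of Hapln1 was -0.05 (95% interval -1.58 to 1.48), and the difference between the zones' genotype effects was -0.67 (SE 0.71, limma adjusted p = 0.999, and -1.26 to -0.28 with a library left out).

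Has2, Acan and Hyal1 in the DZ were lower in R3-cKO in 3 of 3 same-numbered pairs, but their groups overlapped. Has2 stood at 0.63, 0.569 and 0.777 times R3-Cntl (log2 difference -0.55, SE 0.27, limma adjusted p = 0.999, and -0.75 to -0.32 with a library left out), and Acan at 0.693, 0.664 and 0.919 times (-0.41, SE 0.33, limma adjusted p = 0.999, and -0.61 to -0.13 with a library left out). Hyal1 stood at 0.957, 0.657 and 0.97 times (-0.19, SE 0.38), and its sign turned in 2 of 6 omissions. Cd44 had the largest estimate in the DZ, 1.40 (SE 0.74, 95% interval -0.37 to 3.17, limma adjusted p = 0.999), but its pairs stood at 11.4, 3.2 and 0.717 times R3-Cntl, so the third ran the other way. With a library left out the estimate ran from 0.72 to 2.02. Hyal2 was at 1.09, 1.25 and 1.18 times R3-Cntl (log2 difference 0.21, SE 0.19, and 0.07 to 0.35 with a library left out).

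In the SFZ the estimates of the 7 members ran from -0.27 for Cd44 to 0.19 for Hyal1. Their intervals were wide where libraries varied most, as for Acan (-1.58 to 1.90), and narrower for Has2 (-0.57 to 0.36) and Hyal2 (-0.39 to 0.46). The difference of the genotype effect between zones, tested over 11765 genes, gave 0 genes (0%) at an adjusted p under 0.05 by limma and 99 (0.841%) at an unadjusted p under 0.05. That count was 462 with the replicate block and ran from 36 without R3-Cntl SFZ 2 to 714 without R3-cKO SFZ 2, and the omission of any library but R3-cKO SFZ 1, R3-Cntl DZ 3 and R3-cKO DZ 1 moved it over 1.5 times. None of the 7 members was among the 99, and the largest estimate was that of Cd44 (1.67, SE 1.04, and 0.99 to 2.29 with a library left out).

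**Figure D5:**
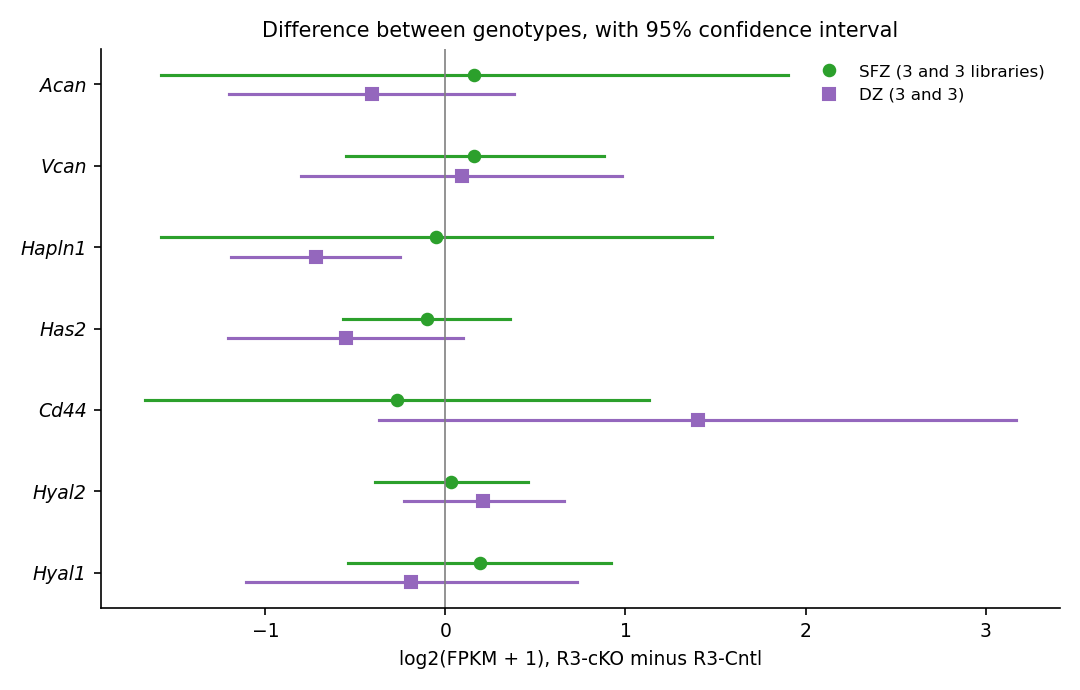
Difference in log2(FPKM + 1), R3-cKO minus R3-Cntl, for the 7 tested members with 95% confidence intervals in SFZ and DZ libraries. Hapln1 in the DZ has the interval that excludes 0 (-1.19 to -0.25), and it did not pass after adjustment over all genes.

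Other genes of the pathway were read from lists that share these roles. Of 26 further hyalectan, link protein and hyaluronan genes, 21 were in the table and 11 were tested between zones over both genotypes, where 4 were lower in the DZ, 0 higher and 7 not called (median log2 difference -0.62, against -0.14 over all genes, of which 18.9% were lower and 4.3% higher). Of these 4, Stab1 and Itih5 met the filter through SFZ libraries alone, so being tested already set their direction, and the count and median are a description that is not read against the share of all genes. They were Itih5, a heavy chain of the inter-alpha-trypsin inhibitor family (2.79 to 9.8 FPKM in SFZ and 0.05 to 1.32 FPKM in DZ libraries, log2 difference -2.16, limma adjusted p = 0.000437), Tnfaip6, which moves such chains onto hyaluronan (-0.98, 0.00294), Cemip, which degrades hyaluronan (-1.47, 0.0228), and Stab1, a scavenger receptor for hyaluronan that reached 1 FPKM in 4 libraries, all of the SFZ (-0.91, 0.0351). Itih5 was the one gene of these lists that also passed within R3-Cntl (-2.32, limma adjusted p = 0.0485), a call lost under quantile normalization (0.0694), median-of-ratios factors (0.0606), no filter (0.0869) and pseudocounts of 0.1 (0.0688) and 5 (0.0562), and without any of its 6 libraries but SFZ 1 (0.0684 to 0.2280). There too it met the filter through its 3 SFZ libraries (4.52 to 9.8 FPKM). The call for Cemip was lost under quantile normalization (adjusted p = 0.0509) and without library 1 of R3-Cntl DZ (0.0520) or R3-cKO DZ (0.0524). That for Stab1, at 0 to 0.17 FPKM in the DZ, was lost when any of 9 libraries was left out, all but R3-Cntl SFZ 3, R3-cKO SFZ 2 and R3-Cntl DZ 3 (adjusted p up to 0.0878). The remaining synthase, Has3, stayed at 0.03 to 0.19 FPKM, and the neural hyalectan Ncan at 0.01 to 0.32 FPKM.

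Of 7 ADAMTS proteases that cleave hyalectans, 4 were tested, 2 were lower in the DZ, 0 higher and 2 not called (median -0.67), against 18.9% of all genes lower. Adamts5, the main aggrecanase of mouse cartilage, was 8.13 to 23.1 FPKM in SFZ and 0.16 to 3.38 FPKM in DZ libraries without overlap (log2 difference -2.37, SE 0.32, limma adjusted p = 0.00116). Adamts1 differed by -0.70 (adjusted p = 0.0278), and its call was lost under quantile normalization (0.0536), median-of-ratios factors (0.0609) and without any of R3-Cntl SFZ 2, R3-Cntl DZ 1 and 3 and R3-cKO DZ 1 and 3 (up to 0.0671). Adamts5 thus differed between zones in the direction opposite to that of its substrate Acan.

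Of 7 genes that supply the UDP-sugars for hyaluronan, 2 were higher in the DZ, 0 lower and 5 not called (median 0.28), against 4.3% of all genes higher as deposited, or 1237 of 11765 under quantile normalization. The called genes were Gfpt1 (29.7 to 45.2 FPKM in SFZ and 49.7 to 79.2 FPKM in DZ libraries, log2 difference 0.77, limma adjusted p = 0.00271) and Gfpt2 (1.30, adjusted p = 0.0221), which encode the entry enzymes of the hexosamine pathway. Gfpt1 did not overlap between zones, and the call for Gfpt2 was lost without R3-Cntl SFZ 2 (0.0566), R3-Cntl DZ 1 (0.0510) or R3-cKO DZ 1 (0.0505). Of 6 genes for partners and sheddases of Cd44, 3 were lower in the DZ (against 18.9% of all genes), 0 higher and 3 not called (median -0.38): the membrane protease Mmp14 (126 to 424 FPKM in SFZ and 27.2 to 98.5 FPKM in DZ libraries, -1.57, adjusted p = 0.00920), Adam17 (-0.38, 0.0125) and Adam10 (-0.69, 0.0469), with the calls for both Adam genes lost under either other scaling. That for Adam10 was also lost with no filter (0.0648), at a mean of at least 10 FPKM (0.0520) and without any of 8 libraries, all but R3-Cntl SFZ 1, R3-cKO SFZ 1, R3-Cntl DZ 2 and R3-cKO DZ 2 (adjusted p up to 0.1120). Marker sums of other cell types moved with these lists too. The fibroblast sum was higher in the SFZ without overlap. Macrophages and leukocytes, and endothelium, in which Stab1 is best known, reached 6.96 to 169 FPKM and 0.33 to 5.59 FPKM in SFZ libraries, against 3.71 to 21.4 FPKM and 0.02 to 0.33 FPKM in DZ libraries. The part of these cells was not tested. Without the 4 R3-cKO libraries numbered 2 and 3, which lacked Y-linked transcripts, the calls for Cemip (limma adjusted p = 0.0770), Stab1 (0.0825), Adamts1 (0.0783), Gfpt2 (0.0645), Adam17 (0.0808) and Adam10 (0.122) were lost. Without both DZ libraries numbered 3, those for Stab1 (0.0818), Adamts1 (0.0980) and Adam10 (0.0910) were lost. Both omissions were chosen after seeing the data. Between genotypes 0 genes of the 4 lists passed in either zone by limma, and at an unadjusted p under 0.05 there were 0 of 27 tested in the SFZ and 1 of 24 in the DZ, Gfpt1, against 0.295% and 3.64% of all genes.

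Among the 11359 genes that averaged 1 FPKM or more, those with the profile most like each member over the 12 libraries were found by Pearson r of log2(FPKM + 1), as a description. For Acan they were Zfp385b (r = 0.992), Epyc (0.990) and Fam20b (0.989). For Vcan they were Cacna1g (0.976), Aspn (0.964) and Itih5 (0.964), and for Hapln1 Papss2 (0.977), Frmd7 (0.975) and Sox8 (0.973). Has2 was closest to Clint1 (0.965), Hip1r (0.958) and Metrn (0.956).

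Cd44 was closest to Cyld (0.978), Nab1 (0.977) and Abracl (0.975), Hyal1 to Cnbd2 (0.980), Lysmd4 (0.969) and Zfr2 (0.955), and Hyal2 to Zfp526 (0.910), Hoxa10 (0.895) and Msx1 (0.890). Among the members Acan was most alike to Hapln1, then to Has2 (r = 0.89, or 0.70 with zone means removed). The Acan and Vcan profiles had r = -0.84, which came to -0.36 with zone means removed. Cd44 ran opposite to Has2 (-0.72, or -0.61 with zone means removed). These libraries share their scaling, and their number limits how well any r is known.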

How the data were processed

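RNA-seq values of 12 libraries were analysed. Per the methods reads were 100-bp paired-end, and the submitters' processing notes name Bowtie 0.12.2 and mm9. The authors deposited FPKM values scaled between libraries by the trimmed mean of M values. The unit was inferred from the dependence on transcript length. Reads and counts were not used here, and 0 columns were left unmapped. Depth was estimated from low values of genes with 1 transcript, of which 67.3 to 77.6% lay within 0.2 of a whole fragment. A step fixed in advance would give 40% by chance. The step, within a set range, and the length offset were instead chosen to fit these same values best. The share is therefore no test of the depth, and counting error of single values was not modelled.

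Values were tested as log2(FPKM + 1) with limma 3.58.1 (R 4.3.3) over genes of at least 1 FPKM in 3 libraries of the comparison, with Benjamini-Hochberg adjustment over all of them. The methods name quantile normalization, which was run as an alternative together with other filters and pseudocounts, median-of-ratios factors, the replicate number as a block and omission of single libraries. Single genes were compared by exact permutation tests. The fit was tested on simulated data, but the outcome is not given here and no result rests on it. In DZ genotypes and R3-cKO zones, same-numbered libraries deviated together (r = 0.65, 0.78 and 0.69, and 0.42, 0.78 and 0.65, over 11359 genes), and the methods name littermate controls. Per the study's supplement SFZ and DZ cells came from 3 individual littermate mice per genotype. The zones of a genotype thus share mice, and no label says that a replicate number marks a mouse. The members and gene lists were chosen with earlier results of these data known. All members were named, and of each list every gene with an adjusted p under 0.05, with the 3 genes of highest Pearson r to each member. Has3 and Ncan were added after their values were seen. Promoter sequences came from RefSeq (GRCm38) and were placed on mm9 by exact match with Python 3.11.15, pandas 2.3.3 and NumPy 2.4.6.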

Additional observations from a re-analysis of the deposited data

How the results depend on the processing

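The calls for Acan, Vcan and Has2 between zones over both genotypes were kept with any library left out, and Acan, Vcan, Hapln1 and Has2 passed with all 12 libraries under the other filters, pseudocounts, scalings and the block, except that a mean of at least 10 FPKM removed Vcan and Has2 from the test (2 members and 1162 genes called). With a library left out, 1624 to 2899 genes and 3 to 4 members passed. With both DZ libraries numbered 3 left out, 2276 genes and 3 members passed, and without the 4 R3-cKO libraries numbered 2 and 3, 1276 genes and 3 members; in both cases Hapln1 was lost (limma adjusted p = 0.0705 and 0.0875). Both omissions were chosen after seeing the data. Within R3-Cntl the count of genes between zones, 140, came to 0 without a filter, 8 at a mean of at least 10 FPKM, 88 and 29 with pseudocounts of 0.1 and 5, 1 under quantile normalization, 17 under median-of-ratios factors, 798 in a model of all 12 libraries (3 members) and 0 to 505 (0 to 2 members) with a library left out. Within R3-cKO, 2 genes came to 7 without a filter, 0 at a mean of at least 10 FPKM, 1 with either pseudocount, 165 in the model of all 12 libraries (1 member, Vcan) and 0 to 5 with a library left out. Vcan and Has2 average under 10 FPKM and so left the test under the mean filter, and the cause of the other changes was not tested.

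With the replicate number as a block, 352 genes and 1 member, Vcan, passed between zones in R3-cKO. In R3-Cntl, where same-numbered libraries did not all deviate together (r = 0.58, 0.11 and -0.15), 831 genes and 3 members (Acan, Has2 and Cd44) passed. Over both genotypes Cd44 passed as well (limma adjusted p = 0.0435), where the block called 800 genes higher and 3165 lower in the DZ. In the SFZ genotypes (r = 0.79, -0.09 and -0.42) and in the DZ genotypes the block changed no member's call.

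Small differences changed sign. Vcan between genotypes in the DZ came to -0.01 under quantile normalization. Hyal2 between zones came to 0.16 (quantile) and 0.13 (median-of-ratios) in R3-Cntl, and over both genotypes to -0.10 without the DZ libraries numbered 3 and -0.03 without the 4 R3-cKO libraries. Hyal1 over both genotypes came to 0.20 (quantile), 0.12 (median-of-ratios) and 0.08 without those 4. With single libraries left out the log2 difference between genotypes in the SFZ ran from -0.39 to 0.80 for Acan, -0.44 to 0.54 for Hapln1, -0.21 to 0.06 for Has2, -0.84 to 0.11 for Cd44, -0.03 to 0.48 for Hyal1 and -0.11 to 0.14 for Hyal2. In the DZ it ran from -0.15 to 0.50 for Vcan and -0.49 to 0.18 for Hyal1, and the difference between zones of the Vcan genotype effect from -0.39 to 0.33. Between zones the range in R3-Cntl was -0.06 to 0.40 for Hyal1 and -0.20 to 0.05 for Hyal2, in R3-cKO -0.79 to 0.32 for Cd44, -0.51 to 0.16 for Hyal1 and -0.02 to 0.26 for Hyal2, and over both genotypes -0.14 to 0.17 for Hyal1 and -0.04 to 0.09 for Hyal2. None of these differences had passed the threshold. Values near 0.1 FPKM, as for Has1, rest on few fragments.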
